A study of Macaca mulatta with 10 samples.

Results

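Transcript levels in the association nuclei of the rhesus monkey dorsal thalamus were compared with those in the relay nuclei. The association side held the 4 arrays titled Medial Thalamus or Pulvinar, and the relay side held the 4 arrays titled Anterior Thalamus or Ventral Thalamus. Each nucleus had a replicate 1 and a replicate 2 array, so the comparison used 8 of the 10 arrays, and the 2 Centre Median arrays were left out. The arrays were grouped by their titles alone, and the terms association and relay are the usual anatomical classes, not words of the labels. All tissue came from adult Macaca mulatta brain without treatment, as small punches of single nuclei, and total RNA was hybridised to an Affymetrix GeneChip array whose probes were designed for human transcripts. The study set out to find what distinguishes the nuclei of the dorsal thalamus from one another. The titles do not say which of the medial or ventral nuclei were punched, how many animals were used or whether the replicate numbers stand for animals. The p-values below therefore measure only spread among these arrays. Unless the nucleus is named as the unit, they also leave out the spread between the nuclei of a class.

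Relay nuclei of the thalamus receive their driving input from below the cortex, from sensory, motor or mammillary pathways, and pass it to cortex. Association nuclei such as the pulvinar receive much of their driving input from the cortex itself and connect cortical areas with one another. Both are built mainly of glutamatergic projection neurons, with GABAergic interneurons in primates, astrocytes, and myelinated fibre bundles whose density differs from nucleus to nucleus. Because the punches are bulk tissue, fewer cells of a type and less RNA per cell cannot be told apart in any value given here. All levels are log2(intensity + 1), and all differences are association minus relay on that log2 scale, where 1 is a 2-fold difference.

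TCF7L2 and SLC17A6, markers of thalamic neurons, had high levels in every array compared, though no tissue from outside the thalamus was there to set them against. TCF7L2, the transcription factor that marks thalamic neurons in the adult, stood at 11.78 to 13.00 in the association arrays and 12.30 to 12.93 in the relay arrays. SLC17A6, the vesicular glutamate transporter of thalamic projection neurons, stood at 10.33 to 10.86 in association arrays and 10.71 to 11.54 in relay arrays. Several arrays stood apart. The actin control, whose 3' minus 5' signal rises with RNA degradation or incomplete copying, gave -0.09 to 1.34 in the association arrays and 0.37 to 1.64 in the relay arrays, and the Ventral Thalamus array was highest in each replicate number, at 1.22 and 1.64. Pulvinar replicate 1 had an XIST level of 9.60, against 6.70 to 7.22 in the 3 other replicate 1 arrays and 10.06 to 10.34 in replicate 2. RPS4Y1, a Y-linked gene, was 7.22 in that array, against 8.16 to 8.94 in the 3 others of replicate 1. Medial Thalamus replicate 2 held TTR, the transthyretin of choroid plexus, at 12.19, against 7.17 to 8.41 in the 7 other arrays, and POU4F1, a habenular transcription factor, at 7.36, against 5.56 to 6.27. For the 90 genes followed here, it was counted how often the difference moved by over 1.5 times or turned its sign. With a single array left out this held for 11 without Pulvinar replicate 1 and for 15 without Medial Thalamus replicate 2. With a whole nucleus left out it held for 41 without Ventral Thalamus, 32 without Medial Thalamus, 22 without Pulvinar and 20 without Anterior Thalamus. With the actin signal as a covariate it held for 33. Many of these values are given beside the results.

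**Figure D1:**
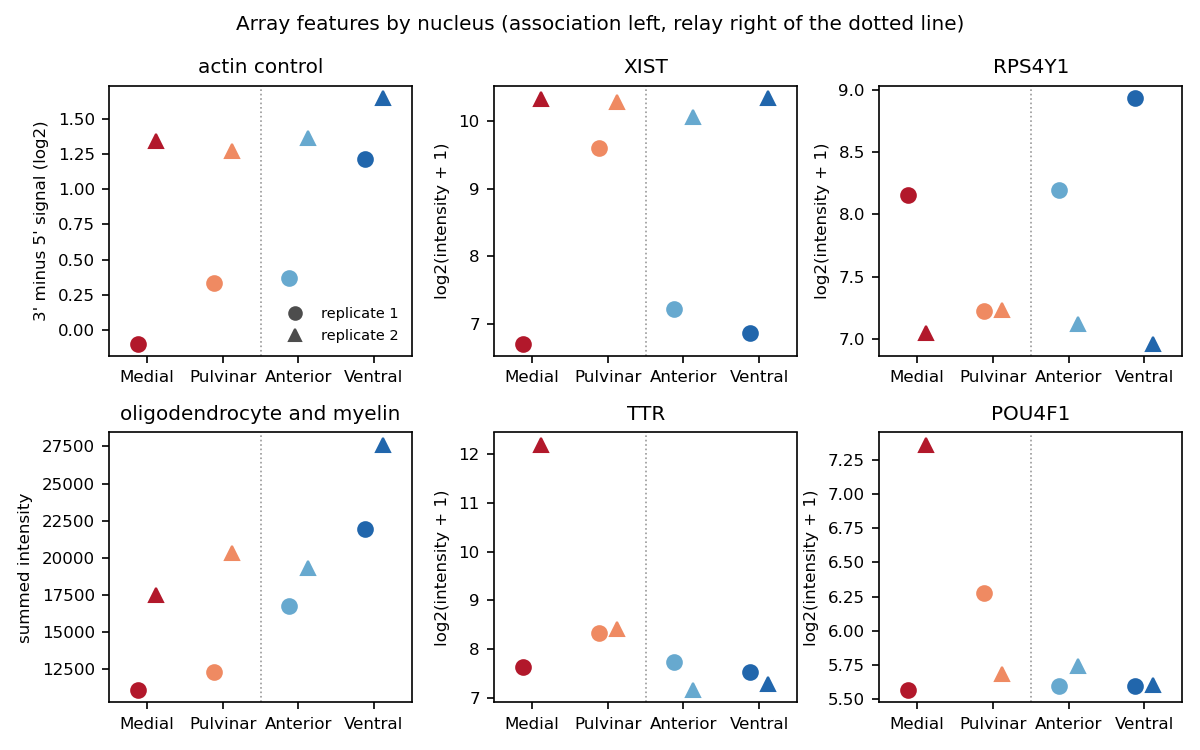
Array features by nucleus (x axis; association nuclei left and relay nuclei right of the dotted line), with circles for replicate 1 and triangles for replicate 2. The y axes give the log2 3' minus 5' signal of the actin control, log2(intensity + 1) of XIST, RPS4Y1, TTR and POU4F1, and the summed intensity of 18 oligodendrocyte genes; Ventral Thalamus was highest in each replicate number for the actin signal and the oligodendrocyte sum, and TTR reached 12.19 in Medial Thalamus replicate 2.

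Across 11963 genes the difference between the classes was small. With limma, 1 coefficient per nucleus and the replicate number as a block, 0 genes passed an adjusted p under 0.05 (0%), and the smallest adjusted p was 0.0697, for GFAP. At an unadjusted p under 0.05 there were 701 genes (5.86%), of which 279 were higher (2.33%) and 422 were lower (3.53%) in association nuclei. A second criterion asked whether Medial Thalamus and Pulvinar both lay above, or both below, Anterior and Ventral Thalamus within replicate 1 and again on the same side within replicate 2. Such genes, called separated below, numbered 552 (4.61%), with 286 higher (2.39%) and 266 lower (2.22%) in association nuclei. Another 459 genes were separated in each replicate number but on opposite sides. Taken by itself, replicate 1 separated 3483 genes and replicate 2 separated 3529. With 2 values against 2, a random order of the values also separates genes, so these counts do not by themselves show a class difference. In 102 genes (0.853%) the 4 association values and the 4 relay values did not overlap at all, replicate numbers aside.

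The separated genes differed little in size. Their median absolute difference was 0.18, against 0.07 over all genes, and the median residual SD of the fit was 0.12. Only 7 of the 552 differed by at least 1.5-fold: PLXNC1, GFAP, VIM and CA10 were higher, and SLC24A3, WSB2 and RPS6KA2 were lower in association nuclei. The nuclei of one class also differed from each other about as much as the classes did. The median absolute difference was 0.10 between Medial Thalamus and Pulvinar and 0.11 between Ventral and Anterior Thalamus. Between the classes it was 0.12 for Medial and Ventral Thalamus. It was 0.09 for Pulvinar and Anterior Thalamus, for Medial and Anterior Thalamus, and for Pulvinar and Ventral Thalamus. With the nucleus as the unit (4 nucleus means, 2 against 2), limma passed 0 genes (0%), 354 lay at an unadjusted p under 0.05 (2.96%), and the smallest adjusted p was 0.316, for SST.

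**Figure D2:**
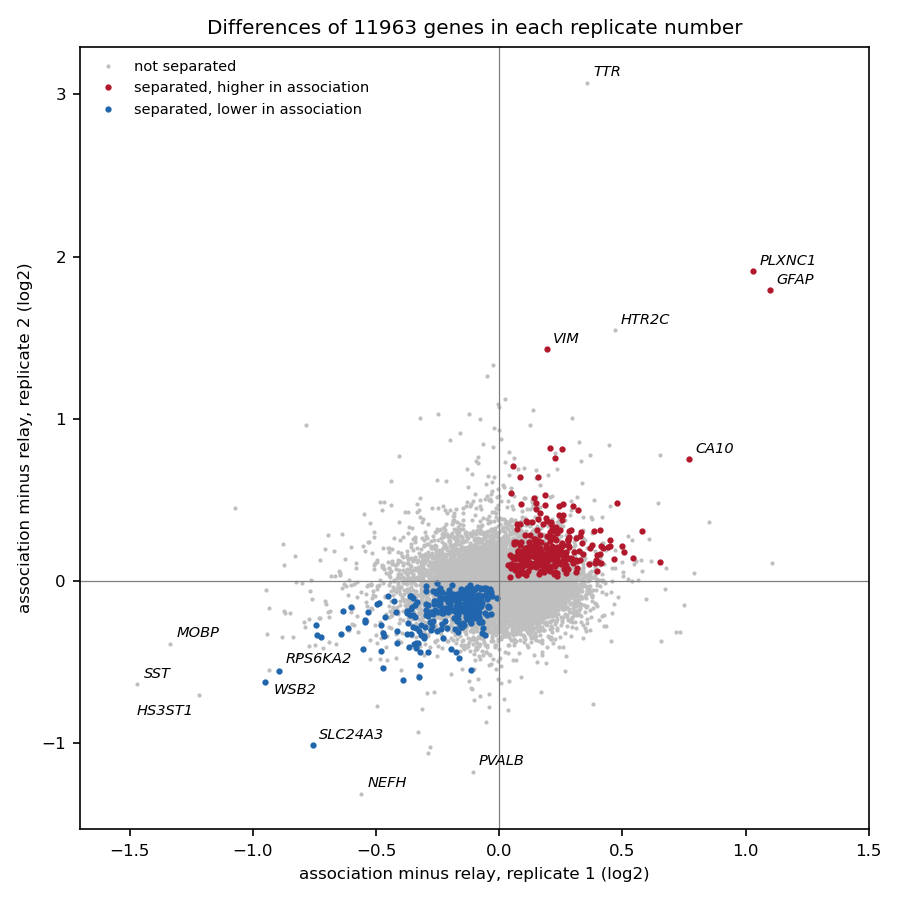
Association minus relay difference of each of 11963 genes in replicate 1 (x axis) and replicate 2 (y axis), both in log2 units, with separated genes in red (286, higher in association) and blue (266, lower) and all others in grey. GFAP and PLXNC1 lie far out on both axes, whereas TTR and VIM are large in replicate 2 alone.

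GFAP, the intermediate filament of astrocytes, had the smallest p of all genes. Its level was 11.19 and 12.44 in Medial Thalamus and 11.25 and 11.70 in Pulvinar (replicates 1 and 2), against 10.17 and 10.56 in Anterior Thalamus and 10.08 and 9.99 in Ventral Thalamus. Every association array lay above every relay array. The difference was 1.44 (SE 0.180), or 2.72-fold, with an adjusted p of 0.0697 by limma, and it came to 1.10 in replicate 1 and 1.79 in replicate 2. It was 1.43 without Pulvinar replicate 1, 1.20 without Medial Thalamus replicate 2 and 2.01 with the actin signal as a covariate, where GFAP passed. A weaker GFAP probe set, with a mean of 6.03, differed by 0.16.

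VIM, which encodes vimentin, another glial intermediate filament, was also separated and had no overlap. VIM was 7.70 and 9.02 in Medial Thalamus and 7.64 and 8.16 in Pulvinar, against 7.37 and 6.94 in Anterior Thalamus and 7.58 and 7.39 in Ventral Thalamus. The separation was narrow in replicate 1, with a difference of 0.19, and wide in replicate 2, with 1.43. Over both it was 0.81 (SE 0.223, limma adjusted p = 0.517), and 0.47 without Medial Thalamus replicate 2. VIM was singled out after its values were seen. Of the 16 measured genes of the astrocyte list 9 were above 0 and 7 below, with a median of 0.04 against -0.0013 over all genes. Without Ventral Thalamus 14 of the 16 were above 0, with a median of 0.15. Its summed intensity was 16483 to 25443 in association arrays and 13300 to 21735 in relay arrays. ID3, a repressor of differentiation factors, differed by 0.54 (limma adjusted p = 0.691) and AQP4, the water channel of astrocyte endfeet, by 0.38. ID3 was 0.24 without Medial Thalamus replicate 2, and it was 0.84 and passed without Medial Thalamus replicate 1. AQP4 was 0.21 without Medial Thalamus replicate 2 and 0.066 without Anterior Thalamus replicate 2. GLUL, the glutamine synthetase of astrocytes, which was singled out after its values were seen, was separated in the other direction at -0.27 (limma adjusted p = 0.775).

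PLXNC1, a plexin that serves as a semaphorin receptor, had the largest difference of the separated genes. Its level was 8.72 and 9.73 in Medial Thalamus and 7.92 and 9.94 in Pulvinar, against 7.47 and 8.67 in Anterior Thalamus and 7.11 and 7.18 in Ventral Thalamus. Within each replicate number both association values were above both relay values, although the replicate 2 value of Anterior Thalamus exceeded the replicate 1 value of Pulvinar. The difference was 1.47 (SE 0.226, limma adjusted p = 0.117), or 2.77-fold. It was 1.01 without Ventral Thalamus and 1.79 without Pulvinar replicate 1, where PLXNC1 passed. Its 2 other probe sets differed by 0.46 and 0.15.

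CA10, a catalytically inactive carbonic anhydrase relative that binds neurexins at synapses, was 8.14 and 8.78 in Medial Thalamus and 7.66 and 8.82 in Pulvinar, against 7.38 and 8.54 in Anterior Thalamus and 6.88 and 7.56 in Ventral Thalamus. Anterior Thalamus lay just below Pulvinar, and Ventral Thalamus lay lowest in both replicate numbers. The difference for CA10 was 0.76 (SE 0.115, limma adjusted p = 0.117), and it was 0.39 without Ventral Thalamus.

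**Figure D3:**
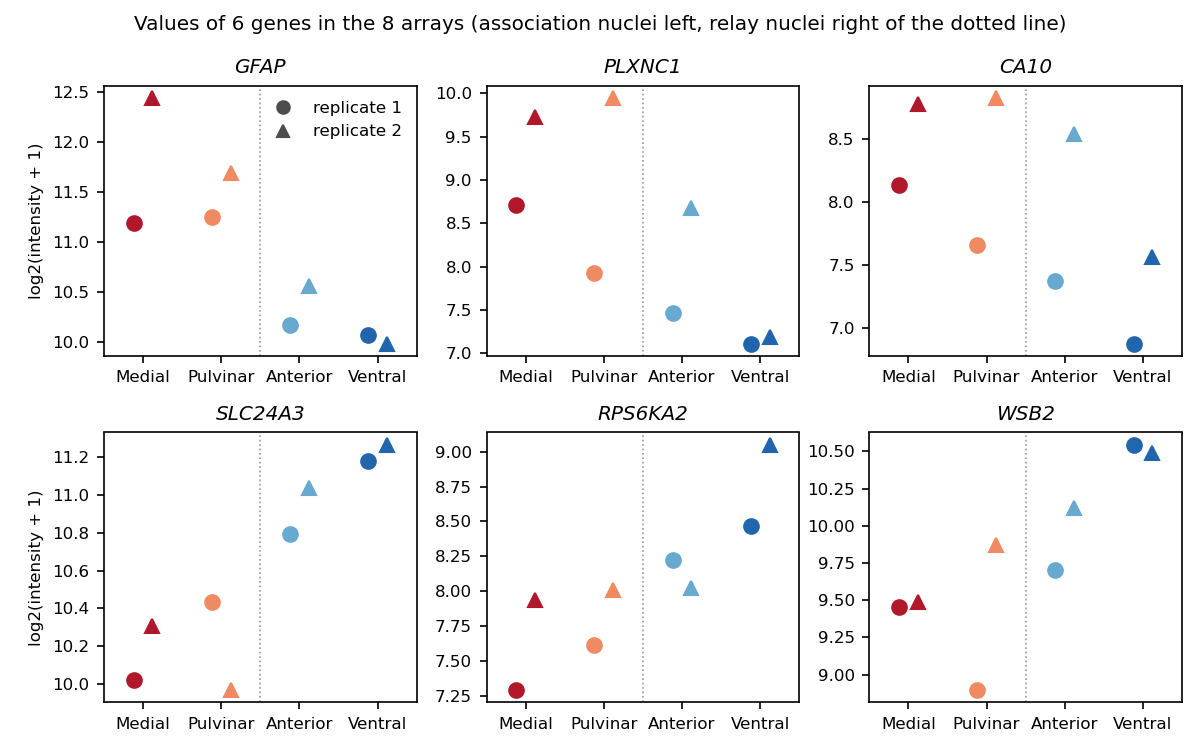
Log2(intensity + 1) (y axis) of 6 separated genes in the 8 arrays by nucleus (x axis; association left, relay right of the dotted line), with circles for replicate 1 and triangles for replicate 2. GFAP and SLC24A3 have no overlap between the classes, and CA10 and WSB2 overlap across replicate numbers.

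The 9 further genes with the smallest p among those separated and higher lay between 0.29 and 0.54, and none passed (limma adjusted p of 0.363 to 0.514). ANKRD6, a modulator of Wnt signalling, was 5.38 to 6.08 in association arrays and 4.98 to 5.19 in relay arrays, a difference of 0.54. ASS1, an enzyme of arginine synthesis, was 6.77 to 7.71 in association arrays and 6.60 to 6.93 in relay arrays, and its difference of 0.44 was 0.14 without Medial Thalamus. ASS1 sat at the edge of the rule, since the replicate 2 values of Pulvinar and Ventral Thalamus were both 6.77 and their margin was 0.00014. The classes overlapped across replicate numbers for ASS1 but not for ANKRD6. TNC, the matrix glycoprotein tenascin C, differed by 0.36, and ITGB4, a laminin-binding integrin subunit, by 0.38, both without overlap of the classes. The other TNC probe set, with a mean of 5.06, differed the other way, by -0.12. The other ITGB4 probe sets differed by 0.20, 0.23 and -0.02. NDP, the Frizzled ligand norrin, differed by 0.29, RARRES2, the chemoattractant chemerin, by 0.37, and PLTP, a phospholipid transfer protein, by 0.48. FAM107A, an actin-associated protein, differed by 0.49, and its other probe set, also separated, by 0.57. The FAM107A margin was only 0.0011, between Medial and Anterior Thalamus in replicate 1. BBOX1, the last enzyme of carnitine synthesis, was 6.71 to 7.98 in association arrays and 6.50 to 7.25 in relay arrays, a difference of 0.51.

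Among separated genes lower in association nuclei, SLC24A3, a potassium-dependent sodium and calcium exchanger, had the smallest p. SLC24A3 was 10.02 and 10.31 in Medial Thalamus and 10.44 and 9.97 in Pulvinar, against 10.79 and 11.04 in Anterior Thalamus and 11.18 and 11.27 in Ventral Thalamus. The classes did not overlap, and both nuclei of each class held similar levels. The difference was -0.89 (SE 0.139, limma adjusted p = 0.117), a level 1.85-fold higher in relay nuclei. Its second probe set differed by -0.73 and was separated as well. Without Pulvinar replicate 1 the difference was -1.05 and SLC24A3 passed, and without Ventral Thalamus it was -0.73.

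RPS6KA2, a kinase downstream of ERK, was 7.29 and 7.94 in Medial Thalamus and 7.61 and 8.01 in Pulvinar, against 8.22 and 8.02 in Anterior Thalamus and 8.47 and 9.05 in Ventral Thalamus. In replicate 2 Pulvinar and Anterior Thalamus lay side by side. Its difference was -0.73 (SE 0.134, limma adjusted p = 0.304) and -0.41 without Ventral Thalamus, and a second RPS6KA2 probe set differed by -0.00017. WSB2, a substrate adaptor of ubiquitin ligases, was 9.45 and 9.49 in Medial Thalamus and 8.90 and 9.87 in Pulvinar, against 9.71 and 10.12 in Anterior Thalamus and 10.54 and 10.49 in Ventral Thalamus. Its difference was -0.79 (SE 0.156, limma adjusted p = 0.304), and -0.48 without Ventral Thalamus.

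The 9 other genes of this kind lay between -0.54 and -0.39 (limma adjusted p of 0.304 to 0.363). RYR3, a calcium release channel of the endoplasmic reticulum, was 5.69 to 6.21 in association arrays and 6.19 to 6.84 in relay arrays, a difference of -0.46. The RYR3 margin was only 0.0058, between Pulvinar and Anterior Thalamus in replicate 2. ESRRG, a nuclear receptor that drives mitochondrial genes, differed by -0.50, with -0.45 in its other probe set. COX7A2, a subunit of cytochrome c oxidase, was 8.80 to 10.13 in association arrays and 9.43 to 10.48 in relay arrays, a difference of -0.54. DIO2, the deiodinase that makes active thyroid hormone, was 7.50 to 7.79 in association arrays and 7.91 to 8.54 in relay arrays, with no overlap and a difference of -0.51. The other DIO2 probe sets differed by only -0.05, -0.02 and -0.19, and none of them was separated. B3GALT2, a galactosyltransferase, also had no overlap of the classes and differed by -0.49, with -0.61 in its second probe set. APC, the scaffold that promotes degradation of beta-catenin, differed by -0.49, but its 4 other probe sets ranged from -0.30 to 0.12. The histone demethylase KDM7A differed by -0.40, MOB3B, a kinase activator of the MOB family, by -0.45 and SCAND1, a SCAN-domain protein, by -0.39. Ventral Thalamus took part in the widest of the 4 nucleus pairs for 11 of these 12 lower genes and for 8 of the 12 higher ones. Each pair holds either Anterior or Ventral Thalamus. Over all separated genes, Ventral Thalamus lay below Anterior Thalamus for 176 of the 286 higher and above it for 165 of the 266 lower. Medial Thalamus was outermost about as often, above Pulvinar for 178 of the 286 higher and below it for 167 of the 266 lower. Without Ventral Thalamus the differences were -0.22 for RYR3, -0.28 for ESRRG, -0.30 for DIO2 and -0.17 for SCAND1. Over the 24 genes, 12 had further probe sets, 20 in all, of which 17 had the same sign. That tally includes values near 0, such as -0.00017 for RPS6KA2 and -0.0050 for APC.

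**Figure D4:**
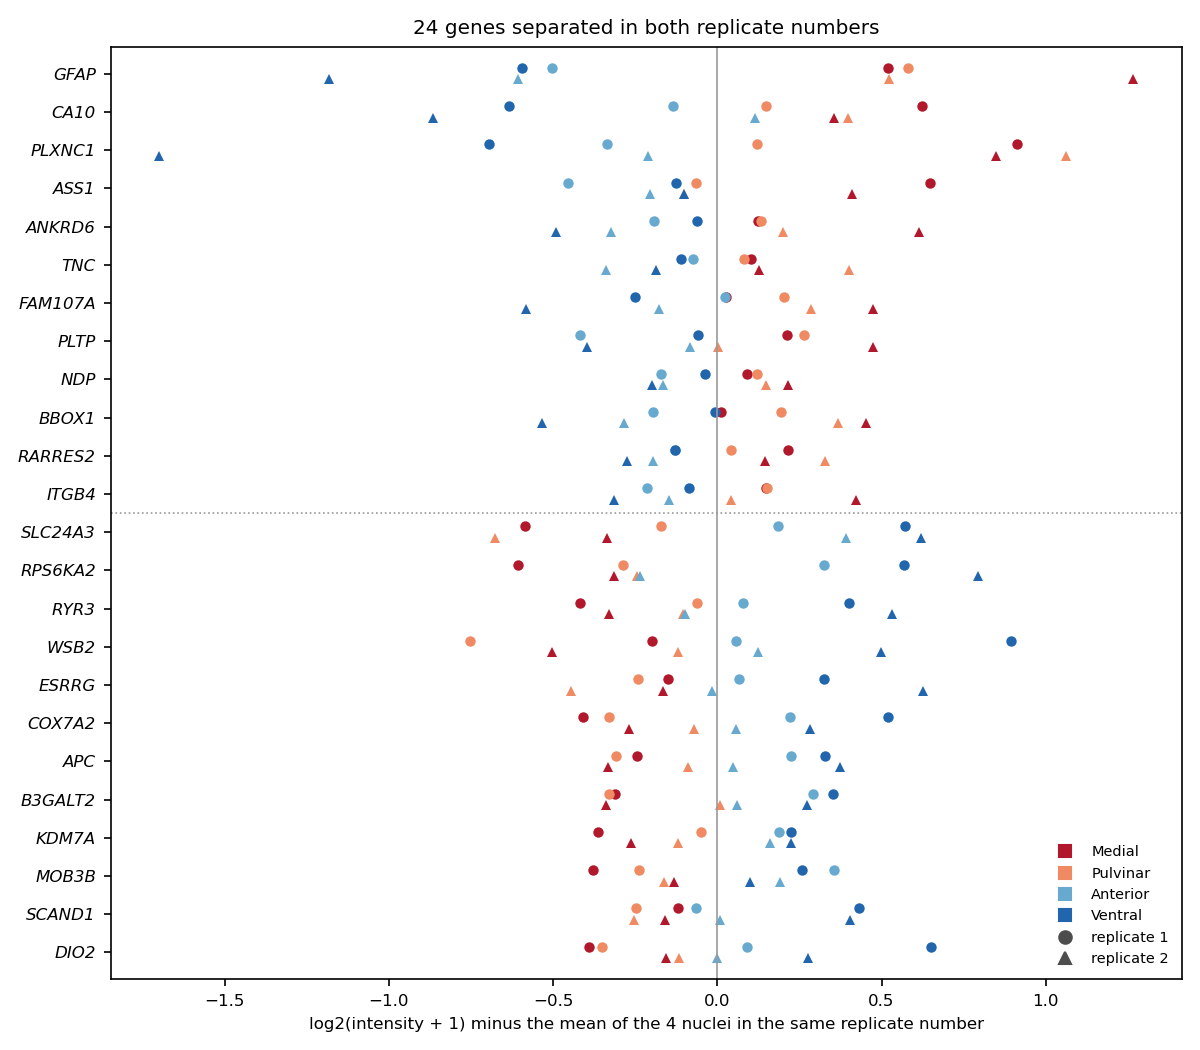
The 12 separated genes of smallest p higher in association nuclei (above the dotted line) and the 12 lower (below it), with each array's log2(intensity + 1) minus the mean of the 4 nuclei of the same replicate number on the x axis. Red and orange symbols are Medial Thalamus and Pulvinar, light and dark blue are Anterior and Ventral Thalamus, circles are replicate 1 and triangles replicate 2; Ventral Thalamus is often the outermost relay nucleus.

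Oligodendrocyte and myelin genes showed the most one-sided pattern of the 30 gene lists. All 18 measured members were below 0, 13 of them at an unadjusted p under 0.05, where 3.53% of all genes were lower at that level, and 0 passed over all genes. Their median was -0.46, at -0.49 in replicate 1 and -0.30 in replicate 2. MBP, the myelin basic protein, was 12.22 and 12.90 in Medial Thalamus and 12.43 and 13.12 in Pulvinar, against 12.93 and 13.18 in Anterior Thalamus and 13.17 and 13.55 in Ventral Thalamus. MBP was the 1 separated member (-0.54, SE 0.147, limma adjusted p = 0.517), where 2.22% of all genes were separated and lower. MOBP, a structural protein of compact myelin, differed by -0.86, CNP, an enzyme of the myelin sheath, by -0.62, and UGT8, which makes the myelin lipid galactosylceramide, by -0.57. MOBP was -0.55 without Pulvinar replicate 1 and -0.54 without Ventral Thalamus, where CNP was -0.24. CNP missed separation narrowly, since the replicate 2 value of Pulvinar, 9.71, lay just above that of Anterior Thalamus, 9.62.

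The myelin difference was uneven among the nuclei. Its list median was -0.72 for Medial minus Ventral Thalamus and -0.51 for Pulvinar minus Ventral Thalamus, but -0.18 for Medial minus Anterior and -0.08 for Pulvinar minus Anterior Thalamus. The summed intensity of the 18 genes was 11066 to 20320 in association arrays and 16749 to 27612 in relay arrays. Without Ventral Thalamus 3 members were above 0 and the median was -0.08, and with the actin signal as a covariate it was -0.33. The part of fibre content or of RNA quality in this pattern was not tested.

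Genes of fast-firing relay neurons and of large axons were lower in the association arrays, with the widest differences against Ventral Thalamus. NEFH, the heavy neurofilament subunit, was 9.25 and 9.40 in Medial Thalamus and 10.21 and 9.99 in Pulvinar, against 9.62 and 9.90 in Anterior Thalamus and 10.96 and 12.12 in Ventral Thalamus. Pulvinar lay above Anterior Thalamus in both replicate numbers, so NEFH was not separated. Its difference of -0.94 (SE 0.182, limma adjusted p = 0.304) was -0.05 without Ventral Thalamus. PVALB, which encodes the calcium buffer parvalbumin, was 7.94 and 9.25 in Medial Thalamus and 9.82 and 9.84 in Pulvinar, against 7.91 and 9.64 in Anterior Thalamus and 10.07 and 11.80 in Ventral Thalamus. Here Medial and Anterior Thalamus formed the low pair and Pulvinar and Ventral Thalamus the high pair in replicate 1. The PVALB difference of -0.64 (limma adjusted p = 0.715) turned to 0.43 without Ventral Thalamus. It was -0.03 without Medial Thalamus and -1.04 without Pulvinar replicate 1.

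In the fast-firing list 13 of 15 measured genes were below 0 and 9 were at an unadjusted p under 0.05, all lower, where 3.53% of all genes were lower at that level. These p-values leave out the spread between the nuclei of a class. The median was -0.39, but -0.11 in replicate 1 and -0.63 in replicate 2, and it was 0.01 without Ventral Thalamus. The members with the widest differences beside NEFH and PVALB were VAMP1, a synaptic vesicle protein of fast synapses, at -0.65, and NEFM, the medium neurofilament subunit, at -0.63. Without Ventral Thalamus VAMP1 and NEFM were 0.01 and 0.38, and without Medial Thalamus -0.61 and -0.24. Pulvinar exceeded Anterior Thalamus for the list as a whole, with a median of 0.22, and lay below Ventral Thalamus, with -0.42. Medial Thalamus lay below both, with a median of -0.18 against Anterior and -0.63 against Ventral Thalamus. In the neurofilament and axonal cytoskeleton list, which shares NEFH and NEFM, 15 of 21 were below 0 with a median of -0.15, which was -0.01 without Ventral Thalamus, and 0 were separated. DPYSL3, a collapsin response mediator of growing axons, differed the other way, by 0.42.

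Oxidative phosphorylation genes, which encode subunits of the respiratory chain and ATP synthase, were below 0 for 50 of 53 measured members. Their median was -0.16, with 13 at an unadjusted p under 0.05, all lower, where 3.53% of all genes were so. The 2 separated members, COX7A2 and CYC1, both lower, stood near the 2.22% of all genes that were separated and lower. CYC1, the cytochrome c1 subunit of complex III, was 7.71, 7.90, 7.87 and 7.97 in association arrays, all below the 4 relay arrays, which reached 8.31 (-0.32, limma adjusted p = 0.691). ATP5F1C, a subunit of the ATP synthase, differed by -0.32 and NDUFA6, a complex I subunit, by -0.31. Without Ventral Thalamus 27 of the 53 were above 0 and the median was 0.00, and by nucleus pair the medians were -0.36 and -0.31 against Ventral Thalamus but -0.03 and 0.04 against Anterior Thalamus. Cytosolic ribosomal proteins, another abundant class of transcripts, had 15 above 0 and 24 below and a median of -0.01, which was -0.22 in replicate 1 and 0.16 in replicate 2. Without Pulvinar replicate 1 the ribosomal tally turned to 37 above and 2 below, with a median of 0.09, and without Ventral Thalamus it was 30 above and 9 below.

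Neuronal class markers did not divide association from relay nuclei evenly. CALB2, which encodes calretinin, was 10.28 and 9.83 in Medial Thalamus and 8.60 and 9.24 in Pulvinar, against 9.43 and 9.39 in Anterior Thalamus and 8.15 and 8.14 in Ventral Thalamus. Anterior Thalamus lay above Pulvinar in both replicate numbers, and the CALB2 difference of 0.71 (SE 0.149, limma adjusted p = 0.363) was 0.08 without Ventral Thalamus. CALB1, which encodes calbindin, a marker of matrix-type thalamic neurons, was 6.56 to 9.55 in association arrays and 7.26 to 8.63 in relay arrays. Its difference was -0.04 (95% interval -0.72 to 0.65), so neither direction could be resolved, and it was 0.50 without Pulvinar replicate 1. PCP4, a small regulator of calmodulin, was 11.14 to 11.53 in association arrays and 11.58 to 12.05 in relay arrays, without overlap (-0.50, limma adjusted p = 0.437). HPCAL4, a neuronal calcium sensor, differed by 0.64 (limma adjusted p = 0.439).

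SLC17A6 was separated and lower, at 10.33 and 10.54 in Medial Thalamus and 10.59 and 10.86 in Pulvinar, against 10.71 and 11.05 in Anterior Thalamus and 10.87 and 11.54 in Ventral Thalamus. The SLC17A6 difference was -0.46 (SE 0.120, limma adjusted p = 0.490), and -0.30 without Ventral Thalamus. TCF7L2 differed by -0.13 (95% interval -0.44 to 0.18), and by 0.10 with the actin signal as a covariate. Its other probe sets ranged from -0.05 to 0.19, most of them above 0. In the relay neuron list 5 of 10 measured genes were above 0, with a median of 0.00. Of 12 GABAergic and reticular genes 9 were below 0, with a median of -0.12. SST, the somatostatin peptide of interneurons, was 8.45 and 7.13 in Medial Thalamus and 7.52 and 7.75 in Pulvinar, against 9.80 and 7.54 in Anterior Thalamus and 9.10 and 8.61 in Ventral Thalamus. SST was lower in both association nuclei in replicate 1, with a difference of -1.47, but Pulvinar exceeded Anterior Thalamus in replicate 2. The SST difference was -1.05 (SE 0.292, limma adjusted p = 0.523), and -0.66 without Pulvinar replicate 1. GAD1, the GABA-synthesising enzyme, differed by -0.51, and by 0.09 without Medial Thalamus. The other GAD1 probe sets, which were weaker, differed by 0.05 and -0.06.

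Axon guidance genes had 5 of 39 measured members separated and higher and 0 lower, where 2.39% and 2.22% of all genes were so. Besides PLXNC1 these were EPHB6, an ephrin receptor without kinase activity, at 0.33, SEMA3A, a repulsive semaphorin, at 0.25, EFNB2, an ephrin-B ligand, at 0.25, and EPHA7, an ephrin-A receptor, at 0.06. The last 3 were singled out after their values were seen. SEMA3A was 6.24 to 6.59 in association arrays and 5.94 to 6.28 in relay arrays, and EPHA7 was 4.33 to 4.41 in association arrays and 4.26 to 4.35 in relay arrays, close to the low end of the scale. The list median was 0.02 and 0 members passed. EFNB3, an ephrin ligand of axon tracts, differed by 0.42 but was not separated.

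In the Wnt list 3 of 26 measured genes were separated and higher and 1 was lower, where 2.39% and 2.22% of all genes were so, and the list median was 0.06. FRZB, a secreted Wnt antagonist, was 6.53 to 7.47 in association arrays and 6.42 to 6.81 in relay arrays (0.38). The FRZB difference was 0.22 without Medial Thalamus replicate 2 and 0.21 without Anterior Thalamus replicate 2. FZD7, a Frizzled receptor of Wnt ligands, was 5.13 to 5.99 in association arrays and 4.94 to 5.12 in relay arrays (0.33). FZD7 differed by 0.14 without Medial Thalamus replicate 2. FZD2, another Frizzled receptor, differed by 0.24, and the coreceptor LRP5 by -0.07, and both were singled out after their values were seen. The Wnt modulators ANKRD6, NDP and APC, given above, are not in that list.

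Channel genes were separated about as often as all genes, of which 2.39% were separated and higher and 2.22% lower. Of 27 potassium and HCN channel genes, KCNK2, a mechanically gated leak channel, was separated and higher at 0.30, and KCNH2, an ERG-type potassium channel, was separated and lower at -0.37. KCNH2 was 7.68 to 8.32 in association arrays and 8.01 to 8.58 in relay arrays. Of 16 calcium channel genes CACNA1H, a T-type channel subunit that was singled out after its values were seen, was the 1 separated member, and it was higher at 0.11. Among 7 sodium channel genes, SCN3A differed by 0.41, SCN2A by 0.31 and SCN1A by -0.39, and 0 were separated. SCN1A, the channel of fast-firing neurons, turned to 0.22 without Ventral Thalamus, and SCN2A to -0.16, and SCN3A was 0.23 without Medial Thalamus replicate 2. Without Medial Thalamus SCN1A was 0.19, SCN2A 0.32 and SCN3A -0.02. The 14 AMPA, NMDA and kainate receptor genes and the 11 GABA-A receptor genes had 0 separated members and 0 at an unadjusted p under 0.05. The widest among them was GRIN2A, an NMDA receptor subunit, at -0.25 (95% interval -0.51 to 0.02).

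Among 38 neuropeptide genes, ADCYAP1, the PACAP precursor, was 7.27 to 8.41 in association arrays and 6.96 to 7.70 in relay arrays (0.57, limma adjusted p = 0.363). The ADCYAP1 difference was 0.10 without Medial Thalamus. PENK, the enkephalin precursor, was 6.56 to 7.12 in association arrays and 6.10 to 6.78 in relay arrays (0.53, limma adjusted p = 0.363). GAL, the galanin precursor, singled out after its values were seen, was the 1 separated member at 0.20. Over all genes, 2.39% were separated and higher and 2.22% lower. Of 19 measured synapse organisers, NPTX2, a secreted pentraxin that clusters AMPA receptors, was separated and lower at -0.39. NPTXR, named because it was separated too, was higher at 0.14. CBLN1, a secreted protein of the cerebellin family, differed by 0.61 through Medial Thalamus, since it was -0.03 without that nucleus. In the list of transcription factors of thalamic identity, ETV1, an ETS-family factor, differed by -0.59 and SHOX2, a homeobox factor, by -0.55. ETV1 was -0.34 without Pulvinar replicate 1 and -0.096 without Ventral Thalamus, where SHOX2 was -0.33. PAX6, a paired-box factor that was singled out after its values were seen, was the 1 separated member of 22 measured, at 0.29. None of 18 immediate early genes was separated or lay at an unadjusted p under 0.05.

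**Figure D5:**
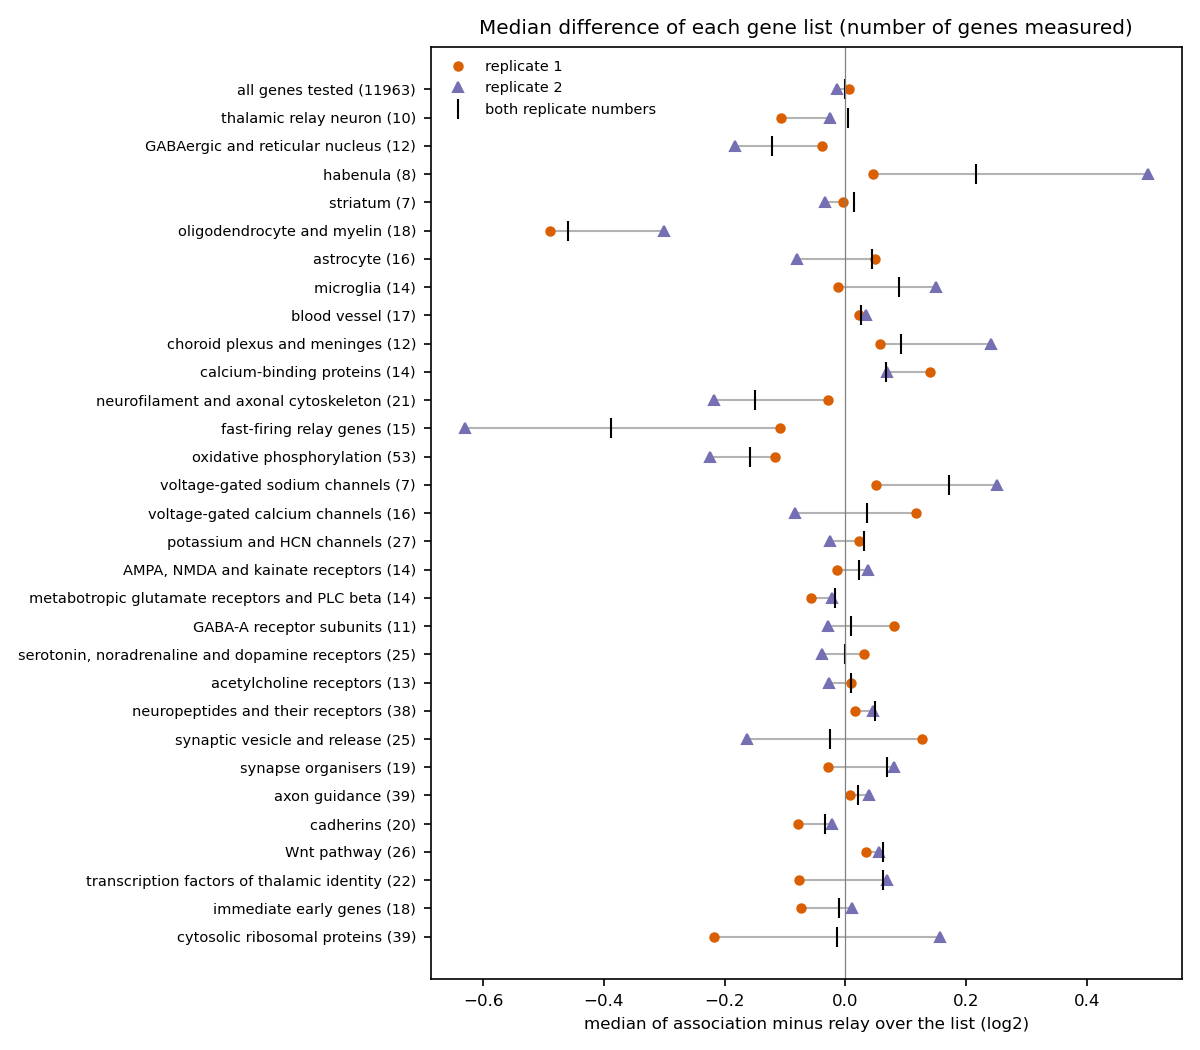
Median association minus relay difference (x axis, log2) of each gene list and of all genes tested, with the number of measured genes in parentheses on the y axis. Orange circles are replicate 1, purple triangles replicate 2 and black bars both; the oligodendrocyte and myelin list lies at -0.49 and -0.30, and the fast-firing list at -0.11 and -0.63.

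Size and separation picked different genes. Of 33 genes that differed by at least 1.5-fold, 15 higher and 18 lower, 26 were not separated. For 15 of these 26 all 4 nucleus pairs differed the same way when replicates were averaged, and for 20 the widest pair was Medial minus Ventral Thalamus. HS3ST1, a heparan sulfate sulfotransferase, had the smallest p after GFAP and was singled out for it. HS3ST1 was 4.81 and 6.32 in Medial Thalamus and 6.31 and 7.60 in Pulvinar, against 6.48 and 7.07 in Anterior Thalamus and 7.08 and 8.26 in Ventral Thalamus. In replicate 2 Pulvinar exceeded Anterior Thalamus, which ended the separation. The HS3ST1 difference was -0.96 (SE 0.132, limma adjusted p = 0.0919), and -0.26 without Medial Thalamus.

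The widest difference of all, that of TTR, owed much of its size to 1 array. TTR was 7.63 and 12.19 in Medial Thalamus and 8.34 and 8.41 in Pulvinar, against 7.73 and 7.17 in Anterior Thalamus and 7.53 and 7.28 in Ventral Thalamus. The TTR difference of 1.71 was 0.51 without Medial Thalamus replicate 2. It was 0.95 without Medial Thalamus, since both Pulvinar values lay above every relay value. HTR2C, a serotonin receptor abundant in choroid plexus and habenula, was 6.13 and 8.83 in Medial Thalamus and 5.25 and 4.61 in Pulvinar, against 5.31 and 5.83 in Anterior Thalamus and 5.13 and 4.52 in Ventral Thalamus. The HTR2C difference of 1.01 was 0.27 without Medial Thalamus replicate 2. The choroid plexus and meninges list summed to 5009 to 13444 in association arrays and 5274 to 7430 in relay arrays, and 10 of its 12 genes were above 0, with 7 above 0 without Medial Thalamus replicate 2. The habenular list summed to 980 to 2187 in association arrays and 710 to 1297 in relay arrays, with 6 of 8 genes above 0 and a median of 0.22. Without Medial Thalamus replicate 2 the habenular list had 5 of 8 above 0 and a median of 0.02. Whether tissue next to the medial nuclei entered that punch was not tested.

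The separation rule admits genes at its margin. DND1, PC, VIL1 and ASS1, the members just inside it, had at most 0.00014 between their nearest association and relay values, and their differences were 0.27, -0.17, 0.24 and 0.44. Just outside it, among genes of at least 1.5-fold, the same margin was -0.05 for POU4F1 and -0.09 for CNP, where a value below 0 is an overlap within 1 replicate number.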

How the data were processed

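Gene expression was measured on 10 arrays, of which 8 were compared. The submitters' processing notes name RMA, without a version, as the method by which the authors made the deposited intensity values. RMA corrects background, normalises between arrays and summarises each probe set. Whether both replicate sets were normalised together is not given in the sources used here. Median intensities lay between 94.2 and 100.6. The lowest intensity of an array was 11.97 to 12.30 in replicate 1 and 9.49 to 9.55 in replicate 2, so the replicate sets differed at the low end. Precision is limited by how few arrays there are.

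The values were taken as log2(intensity + 1). Of 22283 probe sets, 19065 had exactly 1 gene symbol and were no controls. For the 4310 genes with several, the brightest on average over 10 arrays was kept, which left 11963 genes, without a filter on low values. Differences were fitted with limma 3.58.1 in R 4.3.3 (lmFit and eBayes with a variance trend, 3 residual and 8.14 prior degrees of freedom), with 1 coefficient per nucleus and the replicate number as a block, and p-values were adjusted by the Benjamini-Hochberg method. The labels give replicate numbers. The replicate 2 minus replicate 1 differences correlated across genes at 0.758 to 0.812 between nuclei, so the replicate number was kept as a block. A shift shared by all arrays of a replicate set would also give such correlations, so they do not show that nuclei were paired by animal. Among the compared replicate 1 arrays, Pulvinar stood apart in XIST and RPS4Y1, as given above. Reported SDs and 95% intervals are over these arrays. The intervals, like the p-values of this fit, leave out the spread between the nuclei of a class.

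Named genes were, in each direction, genes called and separated, filled up to 12 with the separated genes of smallest p, besides up to 4 examples per list and 9 markers. Since 0 genes were called, all 24 are uncalled. They were chosen on the contrast they describe, so their values support nothing further. Of 662 genes in 30 lists, 549 were measured. Members and lists were chosen with earlier results of these data known. The fit was tested on simulated data. Python 3.11.15 and matplotlib 3.10.9 made the figures. The alternatives are given in the closing section.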

Additional observations from a re-analysis of the deposited data

Results flagged for a closer look

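In 184 sets of 4 values (each named gene or array measure in the association arrays and in the relay arrays), 8 held 1 value far from the other 3 relative to the range of the set. Chance marks about 1 in 20 such sets.

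In the association arrays, Medial Thalamus replicate 2 stood apart for TTR at 12.19 (next value 8.41), for NR4A2, an orphan nuclear receptor, at 7.76 (next 5.47), for FZD7 at 5.99 (next 5.23) and for B3GALT2, as the lowest, at 6.30 (next 6.61). Pulvinar replicate 2 stood apart for TNC at 5.69 (next 5.42). In the relay arrays, Ventral Thalamus replicate 2 was far below the others for EFNB3 at 7.36 (next 8.27), and Anterior Thalamus replicate 2 was highest for POU4F1 at 5.74 (next 5.60), within a narrow range. The 3' minus 5' signal of the GAPDH control in Anterior Thalamus replicate 1 was 0.24, below the next relay value of 0.74. The sources of these values were not tested.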

How the results depend on the processing

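The count of genes that passed was 0 in the fit reported, and it was 0 without the replicate block too (59 at an unadjusted p under 0.05), with either other pseudocount, with every probe set tested, after quantile normalisation, with 1 coefficient per class, without a variance trend and with the GAPDH signal as a covariate, which was added after seeing the data. It was 1 with low genes left out (GFAP, among 9145 genes), 2 with all 10 arrays (GFAP and HS3ST1), 6 with the actin signal as a covariate (5 higher, GFAP and ANKRD6 among them), and 6 with replicate 1 split by XIST and RPS4Y1. That split amounts to leaving out Pulvinar replicate 1, and its 6 genes were PLXNC1, SLC24A3, PVALB, NEFM, HPCAL4 and CALB2. With arrays or nuclei left out the count ranged from 0 to 33. It was 33 without Pulvinar, 18 without Medial Thalamus replicate 1, 10 without Anterior Thalamus, 6 without Pulvinar replicate 1, 4 without Ventral Thalamus replicate 1 and 1 without Anterior Thalamus replicate 2, and 0 for the others. Against 552 separated genes, 880 of 19065 were separated when every probe set was tested, and between 938 and 3419 with an array or nucleus left out, where fewer conditions have to be met. With the nucleus as the unit the count was 0 in the fit reported and in the 6 alternatives run on it, namely both pseudocounts, low genes left out, every probe set, quantile normalisation and no variance trend.

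For the 24 genes named from the separated ones, the difference kept its sign in all 573 values under these settings, a direction that their choice largely fixes, and 18 of these values passed. Over the 90 genes tried, 22 of 2146 values turned their sign, in 13 genes. TCF7L2 was 0.10 with the actin covariate and CALB1 was 0.50 with the split of replicate 1. The other turns came with arrays or nuclei left out, where the difference ranged from -0.57 to 0.50 for CALB1, from -0.36 to 0.11 for TCF7L2, from -1.10 to 0.085 for GAD1, from -0.27 to 2.28 for HTR2C and from -0.22 to 1.00 for NR4A2. It ranged from -1.72 to 0.43 for PVALB, from -1.64 to 0.38 for NEFM, from -1.32 to 0.0076 for VAMP1, from -0.995 to 0.22 for SCN1A and from -0.16 to 0.78 for SCN2A. It ranged from -0.017 to 0.83 for SCN3A, from -0.047 to 0.90 for DPYSL3 and from -0.032 to 1.24 for CBLN1. The causes were not tested. The files used here hold no detection calls, so low intensities were not read as absence.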

Other observations

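The Centre Median arrays, which belong to neither class here, lay on both sides. Of the 286 genes separated and higher in association nuclei, Centre Median was nearer to the association mean for 149 (52.1%), against 49% of the 5907 genes with any difference above 0. Of the 266 separated and lower, it was nearer to the association mean for 164 (61.7%), against 52.3% of the 6056 genes with a difference below 0. Among the 24 genes named from them it was nearer to the association mean for 3 of the 12 higher and 6 of the 12 lower. These are descriptions across genes of the same arrays and were not tested.

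Of 17 blood vessel genes 11 were above 0 and 6 below, with a median of 0.03. KDR was separated and higher and FLT1 and SLC2A1 were separated and lower, where 2.39% and 2.22% of all genes were so. KDR, a growth factor receptor of endothelium, was 4.62 to 4.96 in association arrays and 4.41 to 4.66 in relay arrays (0.19), whereas FLT1, another such receptor, was 7.10 to 7.23 in association arrays and 7.22 to 7.58 in relay arrays (-0.16). SLC2A1, the glucose transporter of the blood-brain barrier, was 9.67 to 9.89 in association arrays and 9.88 to 10.19 in relay arrays (-0.23). TAGLN and ACTA2, contractile proteins of smooth muscle, differed by 0.46 and 0.31, with their highest values, 7.97 and 8.47, in Medial Thalamus replicate 2. KDR, FLT1 and SLC2A1 were singled out after their values were seen. Of 14 microglial genes 12 were above 0, with a median of 0.09, and 9 were above 0 without Medial Thalamus replicate 2. HLA-DRA, an antigen-presenting molecule, differed by 0.44, and by 0.01 without that array.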
